A study of Mus musculus with 1600 samples.

Results

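The 9 genes described here are those of blood coagulation and fibrinolysis named by the rule: thrombomodulin (Thbd), the endothelial protein C receptor (Procr), tissue factor pathway inhibitor (Tfpi), tissue factor (F3), coagulation factor VIII (F8), von Willebrand factor (Vwf), tissue plasminogen activator (Plat), urokinase (Plau) and thrombospondin 1 (Thbs1). They were chosen by name, and all 9 were found among the 45792 gene identifiers of the deposited count tables. The series profiled single glomerular cells of mice that lack Nos3, the endothelial nitric oxide synthase, on a C57BL/6 background. Diabetes pools came from Nos3-/- mice made diabetic at 8 weeks of age with streptozotocin, which kills pancreatic beta cells, in 5 daily doses of 50 µg per gram of body weight. Control pools came from Nos3-/- littermates given citrate vehicle. All mice were 10 weeks old when glomeruli were taken, each pool held cells of 3 mice, and each of 2 experiments had 1 pool per condition, so pools, not cells, are the replicates. No mouse with intact Nos3 was among them, and the mice of a pool cannot be told apart. The Diabetes and Control pools of experiment 1 are called pool 1 of each condition, and those of experiment 2 pool 2.

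Clotting starts when tissue factor, held on cells outside the bloodstream, meets circulating factor VII, and it is amplified by factor VIII, which circulates bound to von Willebrand factor. Endothelium holds it back: Tfpi blocks the first step, and Thbd turns thrombin into an activator of protein C, which Procr presents on the cell surface. Fibrin is removed by plasmin, made from plasminogen by Plat and Plau, and the glomerular capillary is a vessel in which thrombosis and fibrin deposits accompany several kidney diseases.

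Cells were captured in wells of the Fluidigm C1 chip, and 639 of 833 wells with 1 imaged cell passed the filters: 128 and 188 in Diabetes pools 1 and 2, and 120 and 203 in Control pools 1 and 2. Median reads per kept well were 43577 and 176715 in Diabetes pools 1 and 2, and 32222 and 219072 in Control pools 1 and 2. By their markers 300 wells were endothelial-like, 121 mesangial-like, 78 immune-like, 53 podocyte-like and 28 tubular-like, and 16 resembled smooth muscle or renin cells. A further 43 wells, with podocyte markers and the fibroblast gene Col1a2 among their leading genes, stayed unnamed (10 and 16 in Diabetes pools 1 and 2, 6 and 11 in Control pools 1 and 2). The class names come from other genes of the same wells, with these 9 genes and 56 further coagulation genes left out of the clustering, so levels are compared between classes without a test. Xist stood at 1.42 and 1.40 CPM (reads of the gene scaled to 1000000 reads of the sum) in Diabetes pools 1 and 2, against 356 and 442 in Control pools 1 and 2, and 4 Y-linked genes together at 154 and 160 against 0.279 and 0.605. Diabetes and sex-linked expression therefore cannot be told apart in any comparison below, although the design describes sex-matched mice.

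Empty wells, those with no imaged cell, contained RNA of these genes too, which limits what a read in a single well shows. Summed per pool, empty wells held Plat at 1572 and 1102 CPM in Diabetes pools 1 and 2, against 1016 and 725 CPM in Control pools 1 and 2. Their median depth was 2397 and 32994 reads in Diabetes pools 1 and 2, and 2212 and 33610 reads in Control pools 1 and 2. The empty-well value is given below beside each gene for comparison. It is a share of those fewer reads and does not measure the stray RNA inside a well with a cell. Mesangial-like sums, for example, held 41.4 to 217 CPM of Plat, less than the empty wells of any pool.

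Plat, F8, Thbd, Tfpi and Procr, in that order of mean level, had a higher level in endothelial-like sums than in the empty wells of every pool. Vwf and F3 were close to absent from endothelial-like wells. The means of Plau and Thbs1 were lower there than in empty wells. The unnamed wells had a higher mean than endothelial-like wells for Thbd (565 CPM) and Tfpi (198 CPM), with 76% of the Thbd counts of Control pool 2 and 91.5% of the Tfpi counts of Control pool 1 in 1 well. Per length of the annotated exons, so that genes can be compared, mean levels in endothelial-like sums were 455 ± 174 CPM per kb for Plat, 135 ± 16.6 for Thbd, 58.2 ± 6.16 for F8, 24.7 ± 11.6 for Procr and 19.4 ± 11.3 for Tfpi (SD, n = 4 pools). Procr and Tfpi did not differ beyond their spread, while Plat, Thbd and F8 stood apart in order. The remaining members had 2.55 ± 2.50 (Plau), 0.810 ± 1.17 (Thbs1), 0.0791 ± 0.117 (Vwf) and 0.0310 ± 0.0620 (F3) CPM per kb.

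**Figure D1:**
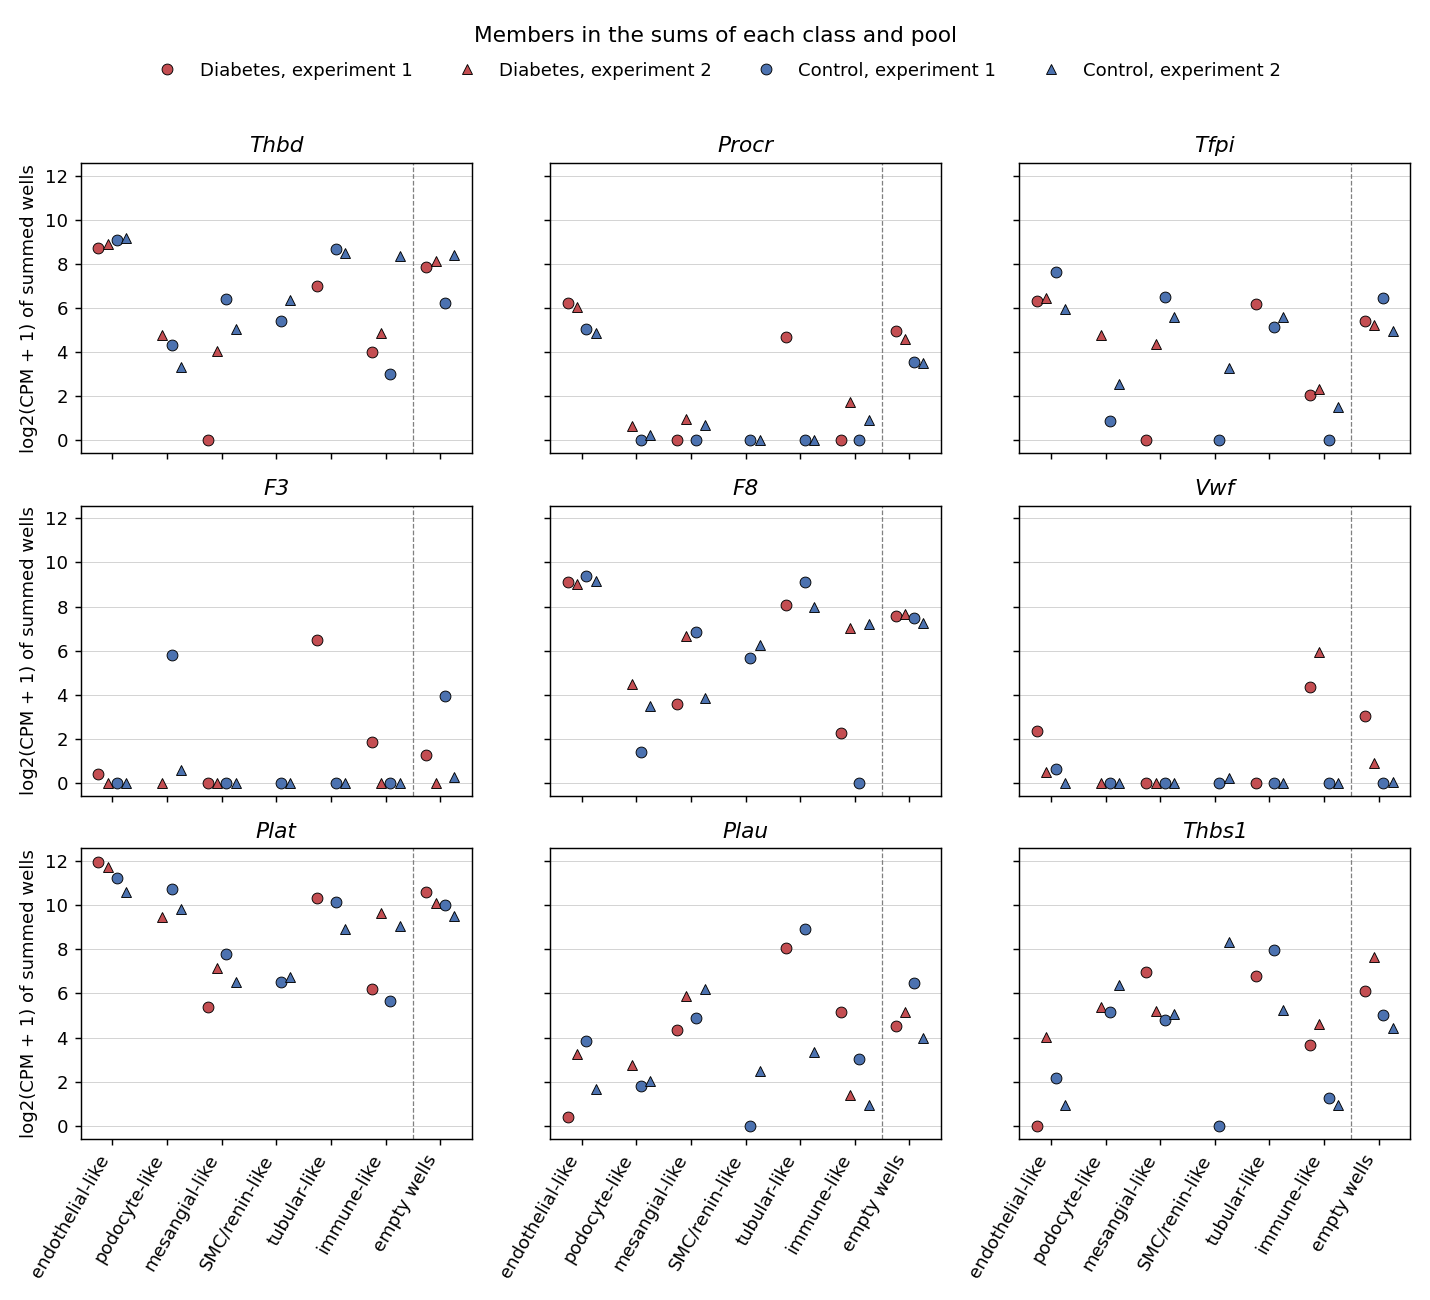
Level of each member as log2(CPM + 1), with 1 point per pool, in the summed wells of each class that held at least 5 wells and in empty wells (right of the dashed line); red is Diabetes, blue is Control, circles are experiment 1 and triangles experiment 2. Procr stood at 27.8 to 74.8 CPM in endothelial-like sums and under 2.31 CPM in podocyte-like and mesangial-like sums, while Vwf was under 4.08 CPM in every endothelial-like sum.

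Thbd (chromosome 2, 148404466 to 148408188, minus strand, GRCm38, GENCODE M21) stood above empty wells in the endothelial-like sum of every pool and was slightly lower there in Diabetes, without passing the test. Its endothelial-like level was 426 and 481 CPM in Diabetes pools 1 and 2, against 532 and 567 CPM in Control pools 1 and 2. Both Diabetes pools lay below both Control pools, by a margin smaller than the difference between the 2 pools of Diabetes. The edgeR log2 fold change was -0.24 (SE 0.28, adjusted p = 1). With wells thinned to 10000 reads, the order was no longer complete, with 459 and 559 CPM in Diabetes pools 1 and 2, against 498 and 601 CPM in Control pools 1 and 2. The order differed between clusters. In the one led by Kdr, Sgk1 and Flt1, Thbd stood at 281 and 172 CPM in Diabetes pools 1 and 2, against 514 and 1012 CPM in Control pools 1 and 2. In the one led by Ly6c1, Gpihbp1 and Fabp4 it stood at 566 and 379 CPM in Diabetes pools 1 and 2, against 278 and 469 CPM in Control pools 1 and 2. The remaining cluster had 369 and 863 CPM of Thbd in Diabetes pools 1 and 2, against 696 and 564 CPM in Control pools 1 and 2, so the groups overlapped in these 2 clusters. Mesangial-like sums held 0 and 15.4 CPM of Thbd in Diabetes pools 1 and 2, and 83.1 and 32.2 CPM in Control pools 1 and 2. Podocyte-like sums held 26.3 CPM of Thbd in Diabetes pool 2, and 19.1 and 8.85 CPM in Control pools 1 and 2. Empty wells had more Thbd than these classes in most pools. They held 230 and 274 CPM in Diabetes pools 1 and 2, against 74.1 and 335 CPM in Control pools 1 and 2. At resolution 1.2 the podocyte-like class took in a further cluster of 31 wells, and its Thbd mean was higher.

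The share of wells with a count depended on depth. At least 1 count of Thbd was seen in 56.9% (95% exact binomial interval 44.7 to 68.6) and 85.1% of endothelial-like wells in Diabetes pools 1 and 2, against 55.3% and 88.5% in Control pools 1 and 2. In mesangial-like wells, where the Thbd level was lower, the shares were 0% and 77.3% in Diabetes pools 1 and 2, against 24.1% and 61.5% in Control pools 1 and 2. At 10000 reads per well, the endothelial-like shares were 51.5% and 57.4% in Diabetes pools 1 and 2, against 42.5% and 52.9% in Control pools 1 and 2. The gap between experiments thus narrowed at equal depth, and 6 and 7 shallower endothelial-like wells of Diabetes pool 1 and Control pool 1 were left out of that count. Intervals cover counting error over wells only, and reads carry no molecular identifiers.

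**Figure D2:**
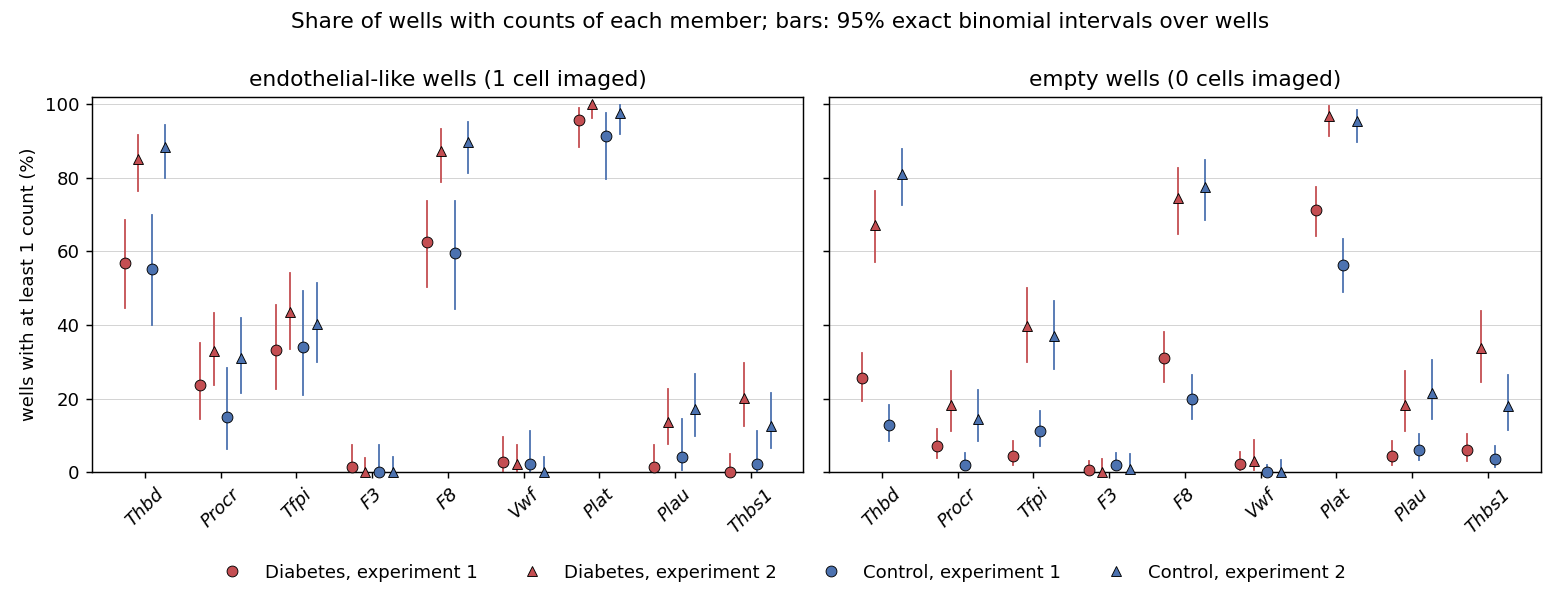
Share of wells with at least 1 count of each member, in percent, in endothelial-like wells (left) and in wells with no imaged cell (right); points are pools, red Diabetes and blue Control, circles experiment 1 and triangles experiment 2, and bars are 95% exact binomial intervals. Plat was seen in 91.5% to 100% of endothelial-like wells and in 56.4% to 96.9% of empty wells, and F3 and Vwf in under 2.79% of endothelial-like wells.

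Procr (chromosome 2, 155751117 to 155755471, plus strand) had its highest mean level of all classes in endothelial-like wells, and that level was higher in both Diabetes pools. It stood at 74.8 and 65.8 CPM in Diabetes pools 1 and 2, against 32.2 and 27.8 CPM in Control pools 1 and 2, so the groups did not overlap. Mesangial-like, podocyte-like and immune-like sums held at most 0.973, 0.572 and 2.31 CPM. Unnamed wells held 65.4 and 3.38 CPM of Procr in Diabetes pools 1 and 2, against 0 and 0 CPM in Control pools 1 and 2. The Diabetes level was 2.33 times the Control level in experiment 1 and 2.37 times in experiment 2. The edgeR log2 fold change of 1.27 (SE 0.62) did not pass (unadjusted p = 0.0796, adjusted p = 1). Over 14 alternatives it lay above 0 every time, with adjusted p from 0.624 to 1. Empty wells showed the same order, with 30.4 and 22.8 CPM of Procr in Diabetes pools 1 and 2, against 10.6 and 10.3 CPM in Control pools 1 and 2. After the empty-well profile was subtracted the log2 fold change was 1.31. Few wells carried these reads: 23.6% and 33% of endothelial-like wells in Diabetes pools 1 and 2, against 14.9% and 31% in Control pools 1 and 2. At 10000 reads per well the shares of wells with Procr were 15.2% and 17% in Diabetes pools 1 and 2, against 15.0% and 10.3% in Control pools 1 and 2.

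Endothelial-like wells lay in 3 clusters, and Procr differed between them. In the cluster led by Ly6c1, Gpihbp1 and Fabp4, Procr stood at 131 and 84.9 CPM in Diabetes pools 1 and 2, against 54.6 and 61.2 CPM in Control pools 1 and 2, and all counts of Control pool 1 there came from 1 of 10 wells. Where Emcn, Ly6c1 and Plpp1 led, it stood at 34.9 and 8.41 CPM in Diabetes pools 1 and 2, against 27.1 and 14.9 CPM in Control pools 1 and 2, and the pools overlapped. The cluster led by Kdr, Sgk1 and Flt1 had 32.5 and 91.1 CPM of Procr in Diabetes pools 1 and 2, against 24.5 and 0 CPM in Control pools 1 and 2. There 1 well held 99% of the counts of Diabetes pool 2, which had 1.05 CPM without it, and 1 well held 59.4% of those of Diabetes pool 1, which had 13.3 CPM without it. The Ly6c1, Gpihbp1 and Fabp4 cluster held 25 of 72 and 53 of 94 endothelial-like wells in Diabetes pools 1 and 2, against 10 of 47 and 22 of 87 in Control pools 1 and 2. Thrsp (r = 0.918) and Tmtc2 (r = 0.892) followed Procr most closely over 20 sums of class and pool, a description in which the sums share pools and empty-well RNA.

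Tfpi (chromosome 2, 84432855 to 84476775, minus strand) had no common direction in the 2 experiments. Its endothelial-like level was 79.2 and 86.9 CPM in Diabetes pools 1 and 2, against 197 and 60.6 CPM in Control pools 1 and 2. The Control pools enclosed the Diabetes pools, with Control pool 1 alone high, and empty wells followed, at 42.0 and 36.1 CPM in Diabetes pools 1 and 2, against 86.0 and 30 CPM in Control pools 1 and 2. The edgeR log2 fold change was -0.35 (SE 0.58, adjusted p = 1), and it was 0.40 without Control pool 1. In mesangial-like sums Tfpi stood at 0 and 19.6 CPM in Diabetes pools 1 and 2, against 88.7 and 47.3 CPM in Control pools 1 and 2. The mesangial-like groups did not overlap, but Diabetes pool 1 held 5 mesangial-like wells, and the fit gave adjusted p = 1.

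The RefSeq promoter table of build GRCm38.p6 held 5 windows for 4 members, Procr, Tfpi, F3 and F8, from 250 bases before to 50 bases after a RefSeq start. Shown are the 3 that reach the start of the gene in GENCODE, those of Procr, Tfpi and F3. In endothelial-like sums Procr and Tfpi stood above the empty wells of every pool, and F3 was close to absent. The F8 window and the second Tfpi window start 2574 and 2601 bases inside the gene. Capitals mark every match, on either strand, to 5 motifs. These were CACCC, the core of sites of KLF factors, CCGGAA, a core of ETS family sites, and AGATAA, a form of the GATA family site. The other two were TGANTCA, the letters of AP-1 sites, and TATAAA, the TATA box.
Procr, chr2:155750967-155751266, plus strand: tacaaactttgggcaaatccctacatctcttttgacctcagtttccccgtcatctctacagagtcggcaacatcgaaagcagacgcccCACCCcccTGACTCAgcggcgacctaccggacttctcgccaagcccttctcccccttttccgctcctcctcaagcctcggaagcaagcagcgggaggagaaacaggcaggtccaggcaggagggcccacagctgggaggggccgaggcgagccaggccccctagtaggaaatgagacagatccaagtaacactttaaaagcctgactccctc
Tfpi, chr2:84476710-84477009, minus strand: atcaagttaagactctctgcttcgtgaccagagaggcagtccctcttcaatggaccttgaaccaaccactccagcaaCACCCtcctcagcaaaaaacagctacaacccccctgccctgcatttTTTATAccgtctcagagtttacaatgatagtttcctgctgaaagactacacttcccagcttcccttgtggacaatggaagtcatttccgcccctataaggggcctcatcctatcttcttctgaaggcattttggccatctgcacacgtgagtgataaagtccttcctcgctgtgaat
F3, chr3:121723287-121723586, plus strand: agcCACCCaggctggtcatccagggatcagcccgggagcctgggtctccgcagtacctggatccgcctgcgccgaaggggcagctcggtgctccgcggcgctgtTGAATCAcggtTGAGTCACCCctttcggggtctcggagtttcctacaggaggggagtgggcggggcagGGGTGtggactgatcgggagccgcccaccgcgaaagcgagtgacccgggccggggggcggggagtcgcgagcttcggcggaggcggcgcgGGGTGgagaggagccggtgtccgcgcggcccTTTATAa
The Procr window held 1 KLF match, 162 bases before the RefSeq start, and 1 AP-1 match, 154 bases before it. The Tfpi window held 1 KLF match, 173 bases before the start, and a TATA match on the opposite strand 127 bases before it. The F3 window held 4 KLF matches on either strand, 2 AP-1 matches, 146 and 135 bases before the start, the one at 135 overlapping a KLF match, and a TATA match on the opposite strand 44 bases into the transcript. The F8 window held none of the 5 motifs, and the second Tfpi window held a KLF match on the opposite strand 202 bases and a GATA match 54 bases before its start. Of all 32851 promoters in the table, 57.5% held the KLF letters, 7.81% the AP-1, 13.6% the TATA, 11.2% the GATA and 14.9% the ETS letters. No member's window held the ETS letters. The F3 window was 70.3% G and C, against 58.3% in the Procr and 48% in the first Tfpi window, with a median of 52.7% over the table. These matches are letters in a window and say nothing of binding.

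F3, which starts clotting outside the vessel, was almost unseen, and what was seen came from a few wells of experiment 1. The gene (chromosome 3, 121723537 to 121735048, plus strand) had 137 counts in all kept wells of Diabetes pool 1 and 0 in Diabetes pool 2, against 128 and 7.20 counts in Control pools 1 and 2. Control pool 2 and Diabetes pool 2 had several times the reads of the other pools, and 3 counts would be 0.079 CPM in Diabetes pool 2. In podocyte-like wells, F3 had counts in 0 of 9 wells of Diabetes pool 2, and in 4 of 21 and 1 of 22 wells of Control pools 1 and 2. The podocyte-like level in Control pool 1 was 55.7 CPM, with 85.1% of its counts in 1 well, and it was 0.521 CPM in Control pool 2. In Diabetes pool 1, all 3 smooth muscle or renin cell-like wells had F3 counts (481 CPM). Diabetes pool 2 had 0 CPM in its 3 such wells, and in Control pools 1 and 2 the wells with counts were 0 of 5 and 0 of 5. Unnamed wells of Control pool 1 held 448 CPM of F3, with 95.1% of the counts in 1 well. The empty-well level of F3 was 1.45 and 0 CPM in Diabetes pools 1 and 2. In Control pools 1 and 2 it was 14.6 and 0.226 CPM. In endothelial-like wells F3 was seen in 1 of 72 and 0 of 94 wells of Diabetes pools 1 and 2, against 0 of 47 and 0 of 87 in Control pools 1 and 2, too few for any fit.

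F8 (chromosome X, 75172715 to 75382615, minus strand), the cofactor of factor IX, had its highest mean level of all classes in endothelial-like wells. The spread between pools was small there. It stood at 553 and 516 CPM in Diabetes pools 1 and 2, against 660 and 577 CPM in Control pools 1 and 2. As for Thbd, both Diabetes pools lay below both Control pools, yet the edgeR log2 fold change was only -0.17 (SE 0.27, adjusted p = 1). Empty wells held 190 and 205 CPM of F8 in Diabetes pools 1 and 2, against 177 and 152 CPM in Control pools 1 and 2. The endothelial-like level was thus 2.92 and 2.52 times the empty-well level in Diabetes pools 1 and 2, and 3.72 and 3.81 times in Control pools 1 and 2. The order was kept in 1 of the 3 clusters. In the cluster led by Kdr, Sgk1 and Flt1, F8 stood at 638 and 580 CPM in Diabetes pools 1 and 2, against 519 and 442 CPM in Control pools 1 and 2. In the one led by Ly6c1, Gpihbp1 and Fabp4 it stood at 484 and 432 CPM in Diabetes pools 1 and 2, against 910 and 623 CPM in Control pools 1 and 2, with Diabetes below Control. Where Emcn, Ly6c1 and Plpp1 led, F8 stood at 566 and 695 CPM in Diabetes pools 1 and 2, against 664 and 571 CPM in Control pools 1 and 2, and the groups overlapped. Podocyte-like sums held at most 21.7 CPM of F8. At resolution 1.2 this class took in a further cluster of 31 wells, and its F8 mean was higher. The F8 mean was 356 ± 169 CPM in tubular-like (n = 3) and 344 ± 191 CPM in unnamed sums (n = 4). Both lay above the empty-well mean of 181 ± 22.5 CPM (SD, n = 4 pools). In tubular-like sums, 1 well held 85.2% of the F8 counts of Diabetes pool 1 and 96.4% of those of Control pool 2. Without it these sums had 45.8 and 12.5 CPM, while Control pool 1 kept 372 CPM without its top well. Unnamed wells of Control pool 1 held 95.45 CPM, below its empty wells, and the other unnamed sums lay above theirs. At 10000 reads per well, F8 was seen in 54.5% and 60.6% of endothelial-like wells in Diabetes pools 1 and 2, against 60% and 66.7% in Control pools 1 and 2. Cd300lg (r = 0.964), a surface receptor of capillary endothelium, and Plpp1 (r = 0.948) followed F8 most closely over the 20 sums. For Thbd these were Pi16 (r = 0.939) and Gimap6 (r = 0.923).

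Vwf (chromosome 6, 125546774 to 125686679, plus strand), which tethers platelets and carries factor VIII, was not a general endothelial transcript in these wells. Endothelial-like wells with a Vwf count numbered 2 of 72 and 2 of 94 in Diabetes pools 1 and 2, against 1 of 47 and 0 of 87 in Control pools 1 and 2. The 0 of 87 wells had a median of 229102 reads, and an exact interval allows a share of up to 4.15%. The summed level was 4.07 and 0.436 CPM in Diabetes pools 1 and 2, against 0.574 and 0 CPM in Control pools 1 and 2, while F8, its partner in plasma, was at 516 CPM or more in each. Vwf in empty wells stood at 7.24 and 0.852 CPM in Diabetes pools 1 and 2. It stood there at 0 and 0.0249 CPM in Control pools 1 and 2. The endothelial-like sum lay above the empty wells in Control pool 1 only. All endothelial-like Vwf counts of Diabetes pool 1 and Control pool 1 lay in the cluster led by Kdr, Sgk1 and Flt1. Markers of arterial endothelium, 8 genes summed, stood at 966 and 548 CPM in Diabetes pools 1 and 2, against 1450 and 544 CPM in Control pools 1 and 2. Immune-like sums held 19.2 and 60.6 CPM of Vwf in Diabetes pools 1 and 2, against 0 and 0 CPM in Control pools 1 and 2. These came from 2 of 27 and 2 of 40 wells, with 88.9% and 95.7% of the counts in 1 well, and the immune-like fit gave unadjusted p = 0.0397 and adjusted p = 1. With 5 and 6 immune-like wells in Control pools 1 and 2, 3 counts would be 21.4 and 2.71 CPM. Platelet and megakaryocyte markers, 7 genes summed, stood at 434 and 90.1 CPM in the immune-like sums of Diabetes pools 1 and 2, against 740 and 0 CPM in Control pools 1 and 2. In Diabetes pool 1 and Control pool 1, Pf4 was the sole marker of the 7 above 0, and their part in the Vwf counts was not tested.

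Plat (chromosome 8, 22757727 to 22782844, plus strand), the plasminogen activator of vessels, had the highest level of the 9 members and was higher in both Diabetes pools. In endothelial-like sums it stood at 4021 and 3380 CPM in Diabetes pools 1 and 2, against 2428 and 1539 CPM in Control pools 1 and 2. The groups did not overlap, and the Diabetes level was 1.66 times the Control level in experiment 1 and 2.2 times in experiment 2. No single well made this: the well with most Plat counts held 9.72% and 3.84% of them in Diabetes pools 1 and 2, and 13% and 6.24% in Control pools 1 and 2. The edgeR log2 fold change was 0.97 (SE 0.23) with an unadjusted p = 0.00358, place 27 of 12698 genes, and an adjusted p = 1. By DESeq2 it was 0.96 with an adjusted p = 0.0487, the lowest of 14 alternatives, of which the highest was 1. The log2 fold change lay between 0.73 and 1.2 in all 14.

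In summed counts, the difference in Plat was present in each of the 3 endothelial-like clusters. Where Emcn, Ly6c1 and Plpp1 led, Plat stood at 2994 and 3668 CPM in Diabetes pools 1 and 2, against 2545 and 1562 CPM in Control pools 1 and 2. The cluster led by Ly6c1, Gpihbp1 and Fabp4 had 4012 and 3181 CPM in Diabetes pools 1 and 2, against 1808 and 1596 CPM in Control pools 1 and 2. The cluster led by Kdr, Sgk1 and Flt1, which has Plat among its 10 leading genes, had 4925 and 3832 CPM in Diabetes pools 1 and 2, against 2659 and 1104 CPM in Control pools 1 and 2. Within none of the clusters did a Control pool reach a Diabetes pool. Where Emcn, Ly6c1 and Plpp1 led, 1 well held 29.8% of the Plat counts of Diabetes pool 1. Without it that sum was 2439 CPM, below Control pool 1, which had 1957 CPM without its own top well. The mean over single wells there was 2373 CPM in Diabetes pool 1 against 2362 CPM in Control pool 1. In the other clusters the Diabetes sums without their top wells stayed above both Control sums.

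**Figure D3:**
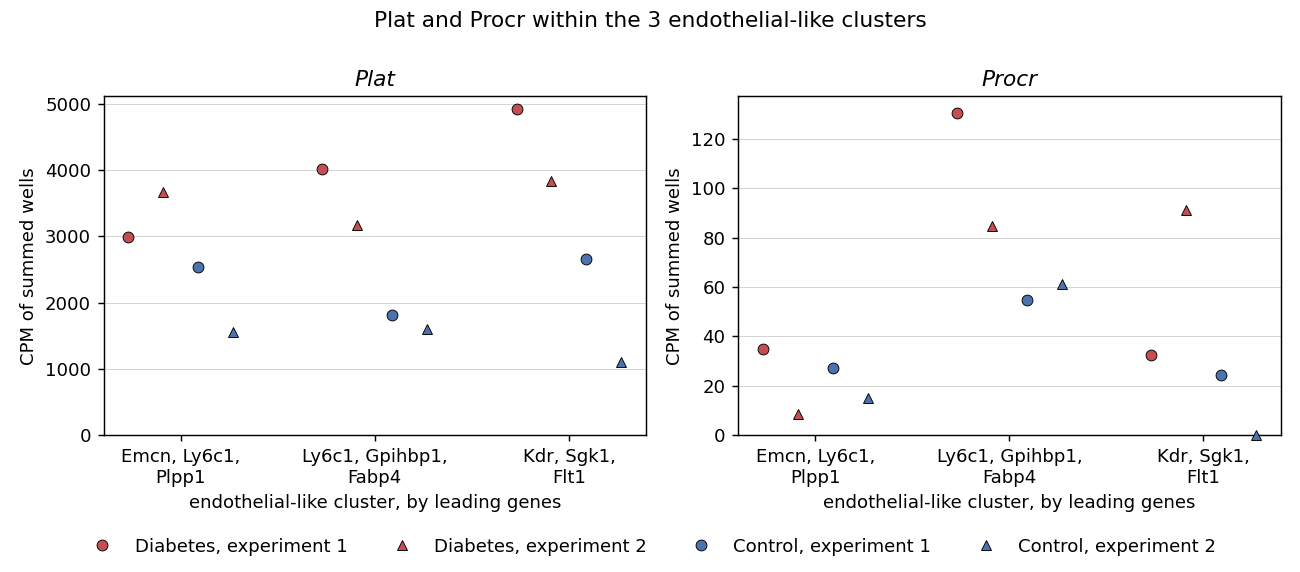
Levels of Plat (left) and Procr (right) in CPM in each of the 3 endothelial-like clusters, named by their leading genes, with 1 point per pool; red is Diabetes, blue is Control, circles are experiment 1 and triangles experiment 2. In summed counts Plat was higher in both Diabetes pools than in both Control pools in every cluster. Procr reached 131 CPM in Diabetes pool 1 in the cluster led by Ly6c1, Gpihbp1 and Fabp4. Its 91.1 CPM in Diabetes pool 2 in the cluster led by Kdr, Sgk1 and Flt1 came almost wholly from 1 well.

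Other measures moved with the Plat difference. Empty wells differed the same way, by 1.55 times in experiment 1 and 1.52 times in experiment 2, and the endothelial-like level was 2.56 and 3.07 times the empty-well level in Diabetes pools 1 and 2, against 2.39 and 2.12 times in Control pools 1 and 2. After subtraction of the empty-well profile the log2 fold change was 1.03. Immune markers in the endothelial-like sums, 15 genes together, stood at 312 and 207 CPM in Diabetes pools 1 and 2, against 23.7 and 70.6 CPM in Control pools 1 and 2, and 8 of the 15 were at 0 in Control pool 1, Tyrobp, Fcer1g and Cd68 among them. Erythroid markers, 5 genes, reached 13540 CPM in Diabetes pool 1 and 30.2 CPM in Diabetes pool 2, against 0 and 23.8 CPM in Control pools 1 and 2. Podocyte markers, 14 genes, stood at 1451 and 956 CPM in Diabetes pools 1 and 2, against 1832 and 1164 CPM in Control pools 1 and 2. The part of these in the Plat difference was not tested. The immune-like class itself held less Plat than endothelial-like wells in every pool, at 73.3 and 790 CPM in Diabetes pools 1 and 2, and 49.8 and 533 CPM in Control pools 1 and 2.

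**Figure D4:**
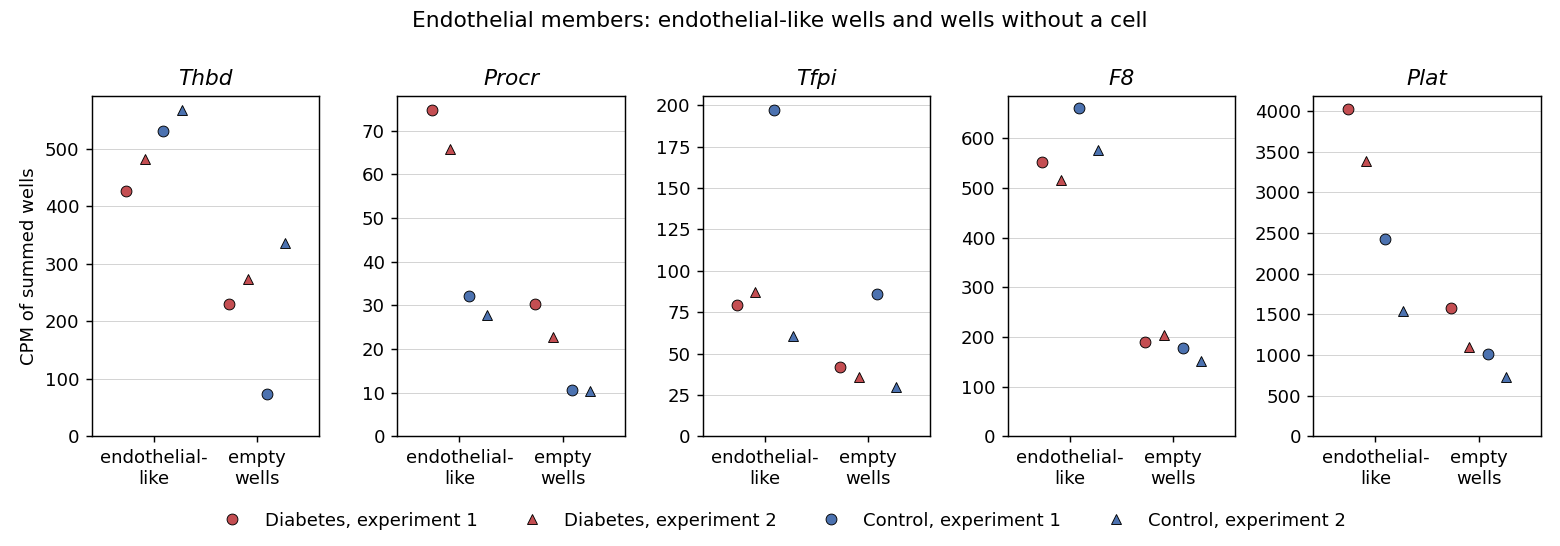
Level in CPM of Thbd, Procr, Tfpi, F8 and Plat in endothelial-like wells and in wells with no imaged cell, 1 point per pool. Red is Diabetes, blue is Control, circles are experiment 1 and triangles experiment 2. Each panel has its own axis from 0. Plat and Procr lie higher in both Diabetes pools in both kinds of well, while Thbd and F8 lie lower in both Diabetes pools in endothelial-like wells and do not in empty wells.

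Outside endothelial-like wells, Plat was highest in the unnamed wells, at 1976 and 2682 CPM in Diabetes pools 1 and 2, against 1234 and 688 CPM in Control pools 1 and 2. These exceeded the empty wells in all pools but Control pool 2. Podocyte-like sums held 707 CPM in Diabetes pool 2, and 1716 and 912 CPM in Control pools 1 and 2, with a mean next to that of empty wells. Diabetes pool 1 held 1 podocyte-like well, at 1133 CPM. In experiment 2 the podocyte-like level was lower in Diabetes than in Control, with 53.6% of the Diabetes counts in 1 of 9 wells. In experiment 1 a single Diabetes well cannot stand for the condition. No direction is drawn for podocyte-like wells, which were too few for a fit. Mesangial-like sums held much less Plat, at 41.4 and 143 CPM in Diabetes pools 1 and 2, against 217 and 90.3 CPM in Control pools 1 and 2. Over pools with at least 5 wells, the mean was 2842 ± 1088 CPM in endothelial-like (n = 4), 1645 ± 870 in unnamed (n = 4), 1112 ± 533 in podocyte-like (n = 3), 968 ± 425 in tubular-like (n = 3), 361 ± 362 in immune-like (n = 4) and 123 ± 75.2 in mesangial-like sums (SD, n = 4). Podocyte-like and tubular-like means did not differ beyond their spread, nor did tubular-like means and the empty-well mean of 1104 ± 351. With a finer clustering, at resolution 1.2, the podocyte-like mean of Plat was 2560 CPM. The class then took in a further cluster of 31 wells, which has Plat among its 10 leading genes. Arhgap29 (r = 0.85) and Ctsl (r = 0.845), a lysosomal protease, followed Plat most closely over the 20 sums.

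Plau (chromosome 14, 20836660 to 20843385, plus strand), the plasminogen activator of tissue, was low and came from few wells, and no class stood above empty wells in every pool. Mesangial-like sums held 19.3 and 57.3 CPM in Diabetes pools 1 and 2, against 28.3 and 73.2 CPM in Control pools 1 and 2. The groups overlapped across experiments, the edgeR log2 fold change was -0.44 (SE 1.93, adjusted p = 1), and all counts of Diabetes pool 1 came from 1 well. In pool 1 of each condition the mesangial-like level lay below that of empty wells, and in pool 2 of each above it. Endothelial-like sums held 0.313 and 8.43 CPM of Plau in Diabetes pools 1 and 2, against 13.2 and 2.16 CPM in Control pools 1 and 2, which is below the empty-well level of each pool (21.7 and 34.5 CPM in Diabetes pools 1 and 2, 87.3 and 14.7 CPM in Control pools 1 and 2). Plau had counts in 20% and 59.1% of mesangial-like wells in Diabetes pools 1 and 2, against 31% and 41.5% in Control pools 1 and 2. The highest levels were in tubular-like wells, 263 CPM in Diabetes pool 1 and 485 CPM in Control pool 1, but 88.8% and 99.4% of these counts came from 1 well each. In Diabetes pool 1, 33.3% of immune-like wells had Plau counts (34.6 CPM), and in Diabetes pool 2 it was 5.00% (1.65 CPM). Control pools 1 and 2 had 7.12 and 0.902 CPM, each from 1 immune-like well.

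Thbs1 (chromosome 2, 118111876 to 118127133, plus strand), a platelet and matrix glycoprotein, was spread over several classes. Its mean was 158.6 ± 224.3 CPM in smooth muscle or renin cell-like sums (n = 2) and 132.6 ± 107.9 in tubular-like sums (n = 3). It was 132.5 ± 183.5 CPM in unnamed wells, 80.7 ± 84 in empty wells and 4.92 in endothelial-like sums (SD, n = 4 pools each). Mesangial-like sums held 124 and 35.5 CPM in Diabetes pools 1 and 2, against 27.1 and 32.6 CPM in Control pools 1 and 2. Both Diabetes pools lay above both Control pools, but all counts of Diabetes pool 1 came from 1 of 5 wells, and the difference in experiment 2 was 0.12 on the log2 scale. The fit gave 1.14 (SE 1.90, adjusted p = 1), and -1.43 after subtraction of the empty-well profile. Podocyte-like sums held 40.6 CPM of Thbs1 in Diabetes pool 2, and 34.9 and 82.1 CPM in Control pools 1 and 2. Endothelial-like sums held 0 and 15.3 CPM in Diabetes pools 1 and 2, against 3.45 and 0.917 CPM in Control pools 1 and 2. Empty wells held more than that, 67.4 and 203 CPM of Thbs1 in Diabetes pools 1 and 2, against 32 and 20.4 CPM in Control pools 1 and 2, with 35.6% to 54.8% of each sum in 1 well. Sdc2 (r = 0.844), a surface proteoglycan, and Syde1 (r = 0.779) followed Thbs1 most closely over the 20 sums.

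Set together, the endothelial-like fit tested 7 of the 9 members, since Vwf and F3 were too low, and called 0 of them at an adjusted p under 0.05. Over all 12698 genes it called 1, or 0.00788%, and 522 genes, or 4.11%, had an unadjusted p under 0.05, Plat alone among the members. DESeq2 called 90 genes, or 0.709%, with Plat as its only member. Both Diabetes pools lay above both Control pools for 2 of the 7 (Plat and Procr), against 16% of all genes, and below them for 2 (Thbd and F8), against 14.3%, so neither share stands far from that of all genes. The median log2 fold change of the 7 was -0.17, and 0.06 over all genes. An exact permutation test of 2 pools against 2 cannot give a p under 0.333, so single members were not tested that way.

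**Figure D5:**
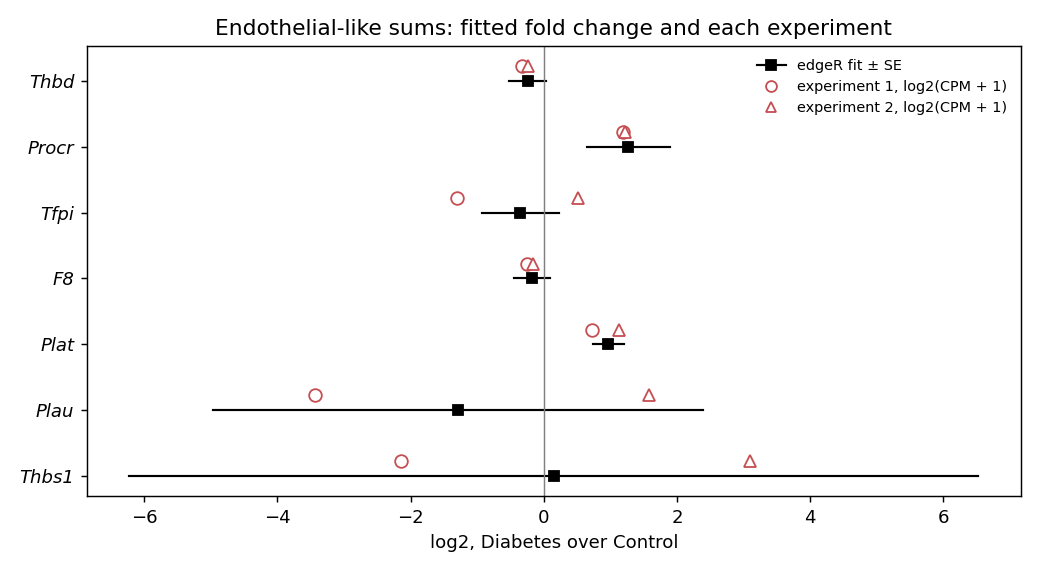
Difference between Diabetes and Control on the log2 scale for the 7 members tested in endothelial-like sums; black squares and bars are the edgeR fold change and its SE, and open red circles and triangles are the log2(CPM + 1) difference within experiments 1 and 2. Plat and Procr lie above 0 in both experiments, Thbd and F8 slightly below 0 in both, and Tfpi, Plau and Thbs1 on opposite sides.

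In mesangial-like sums 6 members were tested and 0 were called, against 13 of 10265 genes (0.127%). By DESeq2 0 members were called as well, against 0.234% of all genes, and 0 members had an unadjusted p under 0.05, against 2.7%. Both Diabetes pools lay below both Control pools for 2 (Thbd and Tfpi), against 23.3% of all genes, and above them for 1 (Thbs1), against 9.97%. These sums came from 5 and 22 wells in Diabetes pools 1 and 2, and 29 and 65 wells in Control pools 1 and 2, and over all genes the median log2 fold change stood at -0.44. In immune-like sums 6 members were tested and 0 were called, by edgeR or DESeq2, against 4 of 8437 genes (0.0474%) by edgeR and 0.083% by DESeq2. Vwf alone had an unadjusted p under 0.05, against 3.82% of all genes. Diabetes lay above Control in all pools for Vwf and Thbs1, against 29.8% of all genes, and below them for 0, against 7.95%. Thbd in these sums stood at 15.0 and 28.2 CPM in Diabetes pools 1 and 2, against 7.12 and 321 CPM in Control pools 1 and 2, and 84.8% of the counts of Control pool 2 were in 1 of its 6 wells. Without Control pool 1, edgeR gave Thbd a log2 fold change of -3.98 and an adjusted p = 0.0389 (0.0389 to 1 over its alternatives). That fit sets both Diabetes pools against Control pool 2 alone and has no block. Its spread comes from the Diabetes pools and from what is shared over genes, with the lone Control pool assumed to vary like them.

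Among 57 further genes of coagulation and fibrinolysis, 56 were in the tables, and 0 passed in any class. In endothelial-like sums 24 were tested, 12 of them with a positive fold change, with a median log2 of -0.02 against 0.06 for all genes. Of the 24, 5 were higher in both Diabetes pools than in both Control pools, against 16% of all genes, and 3 lower, against 14.3%. The clotting factors and fibrinogen chains, which the liver makes, were nearly absent: of 11 initiation and contact factors and 3 fibrinogen genes, 0 reached a mean of 10 CPM in endothelial-like, mesangial-like or podocyte-like sums. In immune-like sums 4 did, F10, F13a1, F5 and F7. Kng1 and Kng2 did in tubular-like sums, and F10 and Kng2 did in empty wells. Mmrn2, an endothelial matrix protein, led the list in endothelial-like sums, at 1787 and 2062 CPM in Diabetes pools 1 and 2, against 1399 and 2164 CPM in Control pools 1 and 2. Anxa2 and S100a10, which together form a plasminogen receptor that binds Plat, followed. Anxa2 stood at 625 and 689 CPM in Diabetes pools 1 and 2, against 569 and 985 CPM in Control pools 1 and 2. S100a10 stood at 468 and 647 CPM in Diabetes pools 1 and 2, against 422 and 846 CPM in Control pools 1 and 2. Neither separated the groups.

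Serpine2, protease nexin, which blocks Plau, Plat and thrombin, led the list in mesangial-like sums at 3598 and 3896 CPM in Diabetes pools 1 and 2, against 2158 and 3002 CPM in Control pools 1 and 2. Both Diabetes pools lay above both Control pools, as for 9.97% of all genes, and the log2 fold change was 0.55 (SE 0.32, adjusted p = 1). In Diabetes pool 1, 48.6% of the Serpine2 counts came from 1 of 5 wells. Empty wells held 234 and 1587 CPM of Serpine2 in Diabetes pools 1 and 2, against 364 and 1305 CPM in Control pools 1 and 2. F2r, the thrombin receptor PAR1, stood at 789 and 1060 CPM in mesangial-like sums of Diabetes pools 1 and 2, against 440 and 296 CPM in Control pools 1 and 2, with a log2 fold change of 1.34 (SE 0.52, unadjusted p = 0.00922, adjusted p = 1). In Diabetes pool 1, 50.7% of these F2r counts came from 1 well, and empty wells held 258 and 593 CPM of F2r in Diabetes pools 1 and 2, against 179 and 281 CPM in Control pools 1 and 2. The 11 mesangial markers summed to 7265 and 6652 CPM in the mesangial-like sums of Diabetes pools 1 and 2, against 15130 and 11900 CPM in Control pools 1 and 2, with 9 of 11 below in both Diabetes pools and 2 called. The 8 markers of smooth muscle or renin cells summed to 1272 and 2279 CPM in Diabetes pools 1 and 2, against 421 and 836 CPM in Control pools 1 and 2, with 1 of the 5 tested called. The part of these in the Serpine2 and F2r differences was not tested. Anxa2 was among the 3 highest there, and its groups overlapped (706 and 917 CPM in Diabetes pools 1 and 2, against 679 and 740 CPM in Control pools 1 and 2).

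In endothelial-like sums 3 of the 24 genes of the list had an unadjusted p under 0.05, against 4.11% of all genes, and Selp and Thbs2 of these are named here after their values were seen (adjusted p = 1 for each by edgeR). Selp, P-selectin, stood at 40.4 and 25.7 CPM in Diabetes pools 1 and 2, against 5.17 and 2.52 CPM in Control pools 1 and 2, with all counts of Diabetes pool 1 and of Control pool 1 in 1 well each. Thbs2, a relative of Thbs1, stood at 12.5 and 2.08 CPM in Diabetes pools 1 and 2, against 90.7 and 18.1 CPM in Control pools 1 and 2, with 70.3% of the counts of Control pool 1 in 1 well. In podocyte-like sums the list was led by Anxa2, Pros1 (protein S, the cofactor of activated protein C) and S100a10. Pros1 stood there at 1518 CPM in Diabetes pool 2, and 94.7 and 413 CPM in Control pools 1 and 2. In immune-like sums it was led by Mmrn2, Anxa2 and Cd47. Mmrn2 stood there at 51.1 and 537 CPM in Diabetes pools 1 and 2, against 42.7 and 2332 CPM in Control pools 1 and 2, an endothelial gene whose empty-well level was 921 and 839 CPM in Diabetes pools 1 and 2, against 310 and 797 CPM in Control pools 1 and 2. Cd47, a receptor of Thbs1, stood at 339 and 246 CPM in Diabetes pools 1 and 2, against 35.6 and 524 CPM in Control pools 1 and 2.

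Endothelial-like wells held more members in experiment 2 than in experiment 1. Counting genes with at least 2 counts, the median well had 2 and 3 of the 9 members in Diabetes pools 1 and 2, and 2 and 3 in Control pools 1 and 2. At least 3 members were seen in 33 of 72 and 78 of 94 wells in Diabetes pools 1 and 2. In Control pools 1 and 2 it was 19 of 47 and 71 of 87 wells. Plat was present in 12 of 13 and 25 of 25 wells with Procr in Diabetes pools 1 and 2, and in 5 of 6 and 20 of 20 in Control pools 1 and 2, when it was present in 67 of 72 and 94 of 94 of all endothelial-like wells in Diabetes pools 1 and 2, and 41 of 47 and 83 of 87 in Control pools 1 and 2. F8 and Thbd were seen together in 20 of 72 and 66 of 94 wells in Diabetes pools 1 and 2, against 12 of 47 and 56 of 87 in Control pools 1 and 2. Alone or together, F8 was in 42 and 78 and Thbd in 36 and 77 of these wells in Diabetes pools 1 and 2, and F8 in 27 and 72 and Thbd in 22 and 68 in Control pools 1 and 2. Whether these pairs met more often than their separate shares give was not tested. Thbd was seen in 6 of 13 and 23 of 25 wells with Procr in Diabetes pools 1 and 2, against 2 of 6 and 15 of 20 in Control pools 1 and 2. Most endothelial-like wells thus held Plat, and the shares were higher in experiment 2, which had more reads per well. The remaining closest profiles were Fscn1 (r = 0.862) and Gm26532 (r = 0.863) for Tfpi, and Atp1b1 (r = 0.748) and Gm11196 (r = 0.747) for Plau. Vwf, with Atp8b4 (r = 0.926) and Pou2af1 (r = 0.903), and F3, with Cldn1 (r = 0.799) and Psca (r = 0.792), had means under 10 CPM over the sums, so these rest on few wells.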

How the data were processed

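RNA of single wells was measured in 4 pools, 2 per condition. The deposited tables hold expected counts per gene and well, and the submitters' processing notes name featureCounts 1.5.1, STAR 2.4.2a, cutadapt 1.11 and BWA 0.7.17-r1188 as the tools of the authors, and mm10 as the build. The handling of strand and of reads shared by several genes is not stated there. Genes were named through GENCODE M21 (45229 of 45792 identifiers).

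Wells with 1 imaged cell, at least 500 genes and at most 30% mitochondrial reads were kept. log2(counts per 10000 + 1) of 2000 variable genes, scaled within each experiment, gave 15 principal components, 15 neighbours and Leiden clusters at resolution 0.8 (scanpy 1.11.5, igraph 0.11.9, Python 3.11.15). A cluster was named if 3 markers of a type were detected in 25% of its wells, the type led among its 50 leading genes with 1 or more in the top 10, and no other type's marker stood in those 10. No doublet caller was run, as imaging gave cell numbers. Ranking leading genes by the difference of mean log2 values, and refusing a name on any marker of another type, were set while working with the data.

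Counts were summed per class and pool where every pool held at least 5 wells, rounded, and fitted with edgeR 4.0.16 under R 4.3.3 (quasi-likelihood test, TMM, filterByExpr, Benjamini-Hochberg, threshold 0.05) with the experiment as block; DESeq2 1.42.0 was an alternative. The experiment number pairs the pools, as the design text states: pools of 1 experiment deviated together with r = 0.15 in endothelial-like, 0.07 in mesangial-like and 0.14 in immune-like sums. Fits leave 1 residual degree of freedom. With the block, it is the difference in the condition effect between the 2 experiments. The quasi-likelihood test also draws on a spread shared over genes, so p-values do not rest on each gene's own pools alone. In mesangial-like and immune-like sums they rest mostly on that shared spread. CPM are not TMM-scaled. The fit was tested on simulated data. Shares carry 95% exact Clopper-Pearson intervals, and empty wells, with 0 imaged cells, are given for comparison. Named genes were the 9 members, of the pathway list the genes that passed and the 3 highest per class, and the 2 most alike per member among genes with a mean of at least 10 CPM. The members and lists were chosen with earlier results of these data known. One gene of the pathway list is not reported here. The spike-in table was not used.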

Additional observations from a re-analysis of the deposited data

Results flagged for a closer look

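Plau differed in opposite directions in 2 classes in both experiments. On the log2(CPM + 1) scale, Diabetes minus Control was -0.53 in experiment 1 and -0.35 in experiment 2 for mesangial-like sums, and 2.13 in experiment 1 and 0.48 in experiment 2 for immune-like sums. The difference between the classes was not tested. Neither class gave a call for Plau (edgeR adjusted p = 1 in each). The mesangial-like counts of Diabetes pool 1 came from 1 well, and the immune-like counts of Control pools 1 and 2 from 1 well each, so both directions rest on few wells.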

How the results depend on the processing

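With 2 pools per condition, 1 residual degree of freedom, 5 mesangial-like wells in Diabetes pool 1 and 5 and 6 immune-like wells in the Control pools, the precision of the tests is low. The number of members called was 0 in each class and moved in 2 settings: 1 in endothelial-like sums by DESeq2 (Plat) and 0 to 1 in immune-like sums over the fits without 1 pool (Thbd without Control pool 1, where Control is 1 pool, assumed to vary like the others). Without the replicate block it was 0 in each class, as in the blocked fit, and dropping the block turned the direction of F8 in immune-like sums (-0.13 on the log2 scale). In endothelial-like sums Plat, Procr, Thbd and F8 kept their direction in all 14 alternatives. These are the members whose pools did not overlap, so the fits without 1 pool could hardly turn them. RLE scaling, DESeq2 and the fits without the block or the filter on low counts reused the same sums. The shared direction is therefore partly fixed in advance. Fold changes turned in sign as follows, on the log2 scale; none of the turned values passed, and the cause was not tested. In endothelial-like sums Plau was 0.37 without Diabetes pool 1 and 1.08 without Control pool 1 (-4.54 to 1.08 over the 4 fits without 1 pool), 0.87 with members kept in the clustering and 0.20 after empty-well subtraction, Tfpi 0.40 without Control pool 1 (-1.11 to 0.40), and Thbs1 -0.46 by DESeq2 and -7.14 without Diabetes pool 2 (-7.14 to 3.11). In mesangial-like sums Plat was 0.07 without Control or Diabetes pool 1 (-2.0 to 0.07), Plau 0.63 without Control pool 2 and 0.29 without Diabetes pool 1 (-1.55 to 0.63), F8 0.00 with RLE scaling, 2.13 and 0.88 without Control or Diabetes pool 1 (-2.59 to 2.13) and 1.83 after subtraction, and Thbs1 -1.43 after subtraction. In immune-like sums Thbd was 2.24 without Control pool 2 (-3.98 to 2.24), Plat -0.29 without Control pool 1 and -2.35 without Diabetes pool 2 (-2.35 to 3.87), and F8 -1.10 and -4.53 without the same pools (-4.53 to 10.64) and -0.05 after subtraction. Genes called over all genes were 1, 13 and 4 in endothelial-like, mesangial-like and immune-like sums, 90, 24 and 7 by DESeq2, 1, 1 and 0 without the block, 4, 13 and 14 with no filter on low counts, 0, 4 and 3 after subtraction, and 8 to 40, 1 to 24 and 0 to 340 over the fits without 1 pool. In endothelial-like sums they were also 5 in thinned wells, 3 with mitochondrial reads at most 15%, and 0 with no filter on wells or at resolution 1.2. At resolution 1.2, where the podocyte-like class took in a further cluster of 31 wells, its means were 299 CPM for Thbd, 279 for F8 and 2560 for Plat. Thbd was in 78.2% of endothelial-like wells of Control pool 2 when 2 counts were required, against 88.5% with 1. With under 5 wells in a pool, the mesangial-like fits with thinned wells and with mitochondrial reads at most 15%, and these and the unfiltered fit of immune-like sums, were not run.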
